A study of Mus musculus with 4 samples.

Results

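The collagen genes are the protein-coding mouse genes whose symbol reads Col, a number, a and a number, one gene for each collagen chain. Applied to the GENCODE vM21 symbols of the table, this rule found 44 genes among 41128 gene rows. Col4a3bp, a lipid transfer protein gene, has another form of symbol and is not among them. Of the 44 genes, 40 reached 10 counts in a library and were tested, and 24 of these reached 100 counts. Col2a1, Col7a1, Col9a1 and Col10a1 stayed under 10 counts in every library.

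RNA was sequenced from 4 populations of non-parenchymal liver cells, with 1 library each and the RNA of 2 mice in each library. Sorting on 3 surface proteins gave R6 (Prom1+CD49f+CD45-), R5 (Prom1-CD49f+CD45-) and R8 (labelled Prom1+CD49f+CD45+), where R and a digit are the submitters' names of the sorting gates. The fourth population, the presorted CD45- cells, was what the sorts started from. All came from C57BL/6 mice in a dietary model of alcoholic hepatitis, in which 60% of calories were alcohol liquid diet delivered into the stomach and 40% a high cholesterol fat diet eaten freely, with a binge each week. There was no healthy liver among them. Neither age nor sex was given, nor whether the same mice supplied all 4 libraries. Prom1 encodes prominin 1 (CD133), CD49f is the integrin alpha 6 protein encoded by Itga6, and CD45 is the leukocyte surface protein encoded by Ptprc.

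Collagens are secreted or membrane-bound proteins built from chains that wind into a triple helix. Fibrillar collagens form the scar of a fibrotic liver and are made mainly by activated stellate cells and portal fibroblasts. Type IV collagens instead form the sheet-like network of basement membranes, which lie under bile duct epithelium and around vessels, while sinusoidal endothelium normally lacks a complete one. The type IV genes lie in head-to-head pairs: Col4a1 and Col4a2 encode the chains found in nearly all basement membranes, whereas Col4a3, Col4a4, Col4a5 and Col4a6 encode chains with a narrower distribution.

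The DNA between or at the paired starts is shown because the type IV pairs gave the clearest split among the libraries. Sequences are from RefSeq windows on GRCm38.p6 and start sites from GENCODE vM21 on the same build. The first exons of Col4a1 (minus strand, start at 11312826) and Col4a2 (plus strand, start at 11312805) overlap by 22 bases at chr8:11312805-11312826. Between the starts of Col4a4 (minus strand) and Col4a3 (plus strand) lie 71 bases, chr1:82586850-82586920. The starts of Col4a6 (minus strand) and Col4a5 (plus strand) lie 1308 bases apart, and the 216 bases before each start are chrX:141474077-141474292 for Col4a6 and chrX:141475169-141475384 for Col4a5. Capitals mark the GC box GGGCGG, the box named CCAAT and the TATA box TATAAA on either strand, and none of the marked matches overlap. The Col4a6 stretch is written along the minus strand and the others along the plus strand.
Col4a1 and Col4a2 shared start: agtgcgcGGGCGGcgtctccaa
Col4a4 and Col4a3 interval: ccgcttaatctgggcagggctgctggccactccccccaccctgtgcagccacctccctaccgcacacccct
Col4a6 upstream: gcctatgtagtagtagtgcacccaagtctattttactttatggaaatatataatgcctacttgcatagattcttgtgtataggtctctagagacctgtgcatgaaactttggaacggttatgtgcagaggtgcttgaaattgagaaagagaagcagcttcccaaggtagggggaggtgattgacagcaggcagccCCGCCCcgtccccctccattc
Col4a5 upstream: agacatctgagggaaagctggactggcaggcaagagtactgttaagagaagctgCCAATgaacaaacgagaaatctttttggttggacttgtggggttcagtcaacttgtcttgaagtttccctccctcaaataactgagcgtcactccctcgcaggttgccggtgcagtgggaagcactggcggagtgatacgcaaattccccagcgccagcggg
The shared Col4a1 and Col4a2 start held GGGCGG, as did 4.09% of all 32851 promoter windows in their first 22 transcribed bases. The 71-base Col4a4 and Col4a3 interval held none of these motifs, while 20.7% of windows held GGGCGG, 13.3% CCAAT and 4.41% TATAAA in the 71 bases before the start. Col4a6 had the reverse complement of GGGCGG and Col4a5 had CCAAT, against 31.6% and 30.8% of all windows over 216 bases. Of 38 windows belonging to 35 collagen genes, 60.5% held GGGCGG, against 35.7% of all windows, while CCAAT (34.2% against 37.4%) and TATAAA (13.2% against 13.6%) were found in similar shares. A match describes letters in a window and is not evidence of a bound site.

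Gene counts totalled 30239484 in R6, 14670239 in R5, 23069940 in the library labelled R8 and 52293939 in presorted cells. Levels are CPM, in which counts are divided by library size, with that size corrected by the TMM method of edgeR, written here as scaled CPM. With 1 library per population no test was possible, and no difference has a replicate check. The 95% intervals are exact, cover counting error only, and treat reads as independent molecules. The words higher and lower are kept for genes whose whole ratio interval lies beyond 2-fold. Prom1 stood at 355 scaled CPM in the R6 library, 31.1 in the R5 library, 11.4 in the library labelled R8 and 67.1 in the presorted library. Ptprc stood at 6.33 scaled CPM in R6, 3.60 in R5, 14.5 in the library labelled R8 and 21.0 in presorted cells, and Itga6 at 72.9 in R6, 50.5 in R5, 127 in the library labelled R8 and 110 in presorted cells. The library labelled R8 was thus below the presorted library for both Prom1 and Ptprc, against its label. In bulk RNA, fewer cells of a type and less RNA per cell cannot be told apart.

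Collagen genes took a smaller share of the counts in both CD45- sorts than in the other libraries. The share was 0.0841% in the R6 library and 0.0906% in the R5 library, against 0.252% in the library labelled R8 and 0.254% in the presorted library. The leading genes also differed. Col18a1 headed the R6 library with 29.1% of its collagen counts, and Col4a5 held 17.2%. In the other libraries Col4a1 led, with 29.6% in the R5 library, 54.9% in the library labelled R8 and 38.5% in the presorted library. Of the 24 genes with 100 or more counts, 7 were highest and 13 lowest in the R6 library, whereas 11 were highest and 3 lowest in the presorted library.

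**Figure D1:**
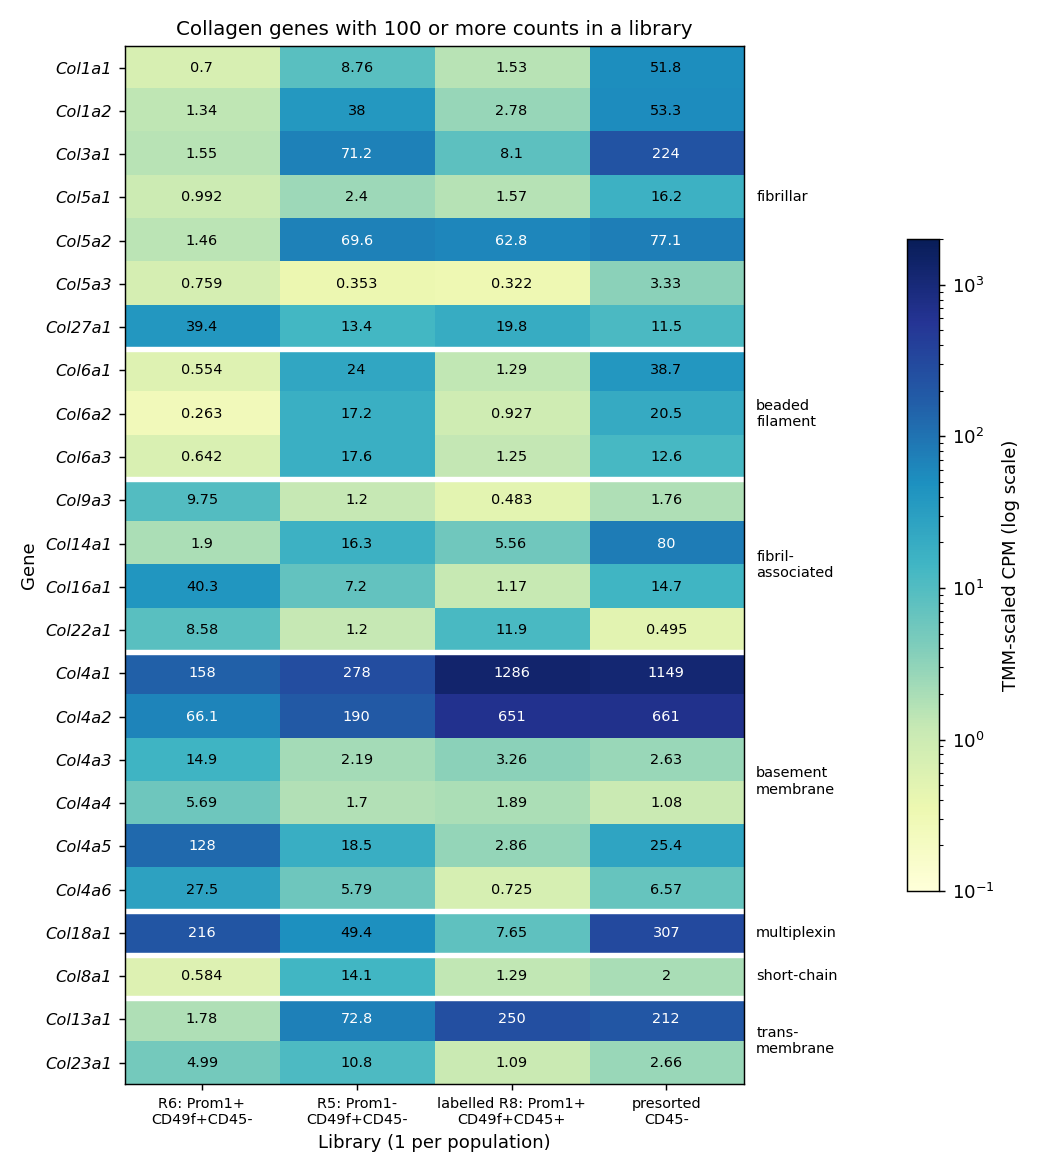
Heat map of the 24 collagen genes with 100 or more counts in a library, in rows by structural class, with 1 column per library; colour gives scaled CPM on a log scale and the printed value is the level. Col4a3, Col4a4, Col4a5 and Col4a6 were highest in the R6 column, where most fibrillar and all beaded filament genes were at their lowest.

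Structural classes took different shares in different libraries. Basement membrane (type IV) genes held the largest class share in each library, with 53.9% of collagen counts in the R6 library, 52.9% in the R5 library, 83.1% in the library labelled R8 and 61.9% in the presorted library. Multiplexins, whose cleavage can release endostatin-type fragments, held 29.1% in R6, 5.28% in R5, 0.334% in the library labelled R8 and 10.3% in presorted cells. Fibrillar genes held 6.50% in the R6 library, 21.8% in the R5 library, 4.30% in the library labelled R8 and 14.7% in the presorted library. Beaded filament genes, which encode the microfibrillar type VI chains, held 0.330% in R6, 6.46% in R5, 0.225% in the library labelled R8 and 2.46% in presorted cells. The largest beaded and short-chain shares were both in the R5 library. Shares within a library sum to a whole, so a high class lowers the others.

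**Figure D2:**
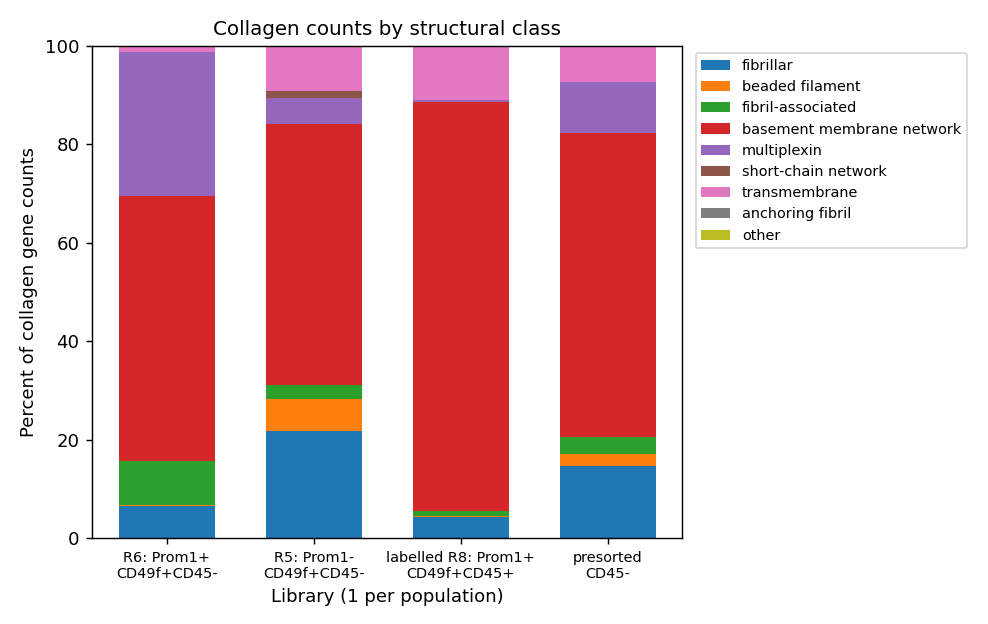
Stacked bars of the percent of collagen gene counts in each structural class, 1 bar per library. Type IV genes form over 50% of each bar, the multiplexin band is widest in the R6 bar at 29.1%, and the fibrillar band is widest in the R5 bar at 21.8%.

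Among the type IV genes, Col4a3 to Col4a6 had their top levels, and Col4a1 and Col4a2 their bottom levels, in the R6 library. Col4a1 had 158 scaled CPM in the R6 library, 278 in the R5 library, 1286 in the library labelled R8 and 1149 in the presorted library. Its partner Col4a2 had 66.1 scaled CPM in R6, 190 in R5, 651 in the library labelled R8 and 661 in presorted cells. Both genes were lowest in the R6 library, and nearly equal in the last pair of libraries. Col4a5, the gene mutated in X-linked Alport syndrome in humans, had 128 scaled CPM in the R6 library, 18.5 in the R5 library, 2.86 in the library labelled R8 and 25.4 in the presorted library. Col4a6, its neighbour, had 27.5 scaled CPM in R6, 5.79 in R5, 0.725 in the library labelled R8 and 6.57 in presorted cells. The order of the libraries was thus the same for both, with the R5 and presorted libraries close together. Col4a3 had 14.9 scaled CPM in the R6 library, 2.19 in the R5 library, 3.26 in the library labelled R8 and 2.63 in the presorted library. Col4a4, the other member of that pair, had 5.69 scaled CPM in R6, 1.70 in R5, 1.89 in the library labelled R8 and 1.08 in presorted cells. For this pair the counting intervals of the R5 library and the library labelled R8 overlapped.

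**Figure D3:**
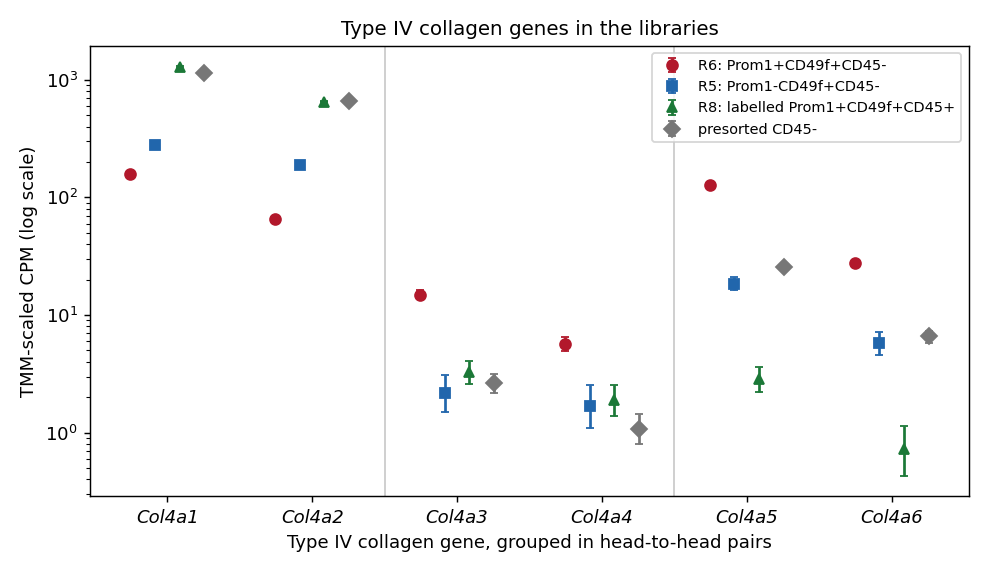
Scaled CPM (log scale) of the 6 type IV genes, grouped in head-to-head pairs, with 1 point per library and exact 95% Poisson intervals for counting error. The R6 points are lowest for Col4a1 and Col4a2 and highest for the other 4 genes.

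Col4a3 to Col4a6 together held 43.9% of type IV counts in the R6 library (95% Clopper-Pearson interval 43.1% to 44.8%), 5.68% in the R5 library, 0.449% in the library labelled R8 and 1.93% in the presorted library. Per kilobase of exon, Col4a5 reached 0.896 of the Col4a1 level in the R6 library, against 0.0740 in the R5 library, 0.00247 in the library labelled R8 and 0.0245 in the presorted library. The ratio within each pair moved far less: Col4a1 over Col4a2 per kilobase was 2.13 in R6, 1.29 in R5, 1.75 in the library labelled R8 and 1.54 in presorted cells, and Col4a5 over Col4a6 was 5.52 in R6, 3.79 in R5, 4.68 in the library labelled R8 and 4.58 in presorted cells. Col4a3 over Col4a4 was 2.78 in R6, 1.38 in R5, 1.83 in the library labelled R8 and 2.60 in presorted cells, with intervals that overlapped among the libraries. Such ratios between genes hold only if reads cover whole transcripts. The protocol in the labels describes a stranded kit of that kind, but the series title names Quant-seq, a method that reads transcript ends, and the conflict was not resolved. The exon overlap of Col4a1 and Col4a2 is 0.295% and 0.332% of their exon bases. A further 5.65% of Col4a3 exon bases overlap C430014B12Rik on the opposite strand, which had 43 counts in R6, 20 in R5, 46 in the library labelled R8 and 26 in presorted cells where Col4a3 had 510 in R6, 31 in R5, 81 in the library labelled R8 and 117 in presorted cells; whether the counting used strand was not given.

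Between the 2 CD45- sorts, which differ in the Prom1 gate, 10 of the 40 collagen genes tested were higher and 11 lower in R6 cells than in R5 cells. Over all 21640 genes tested the calls were 15.5% higher and 12.7% lower. The median log2 ratio was 0.31 over the collagen genes and 0.38 over all genes, but -1.20 over the 24 collagen genes with 100 or more counts and 0.14 over all genes with as many. Col4a5 was 6.91-fold higher in R6 than in R5 cells (95% interval 6.10 to 7.85), Col4a3 6.80-fold (4.73 to 10.1), Col4a6 4.74-fold (3.78 to 6.02) and Col4a4 3.36-fold (2.19 to 5.37). Col4a2 was 2.88-fold lower (2.72 to 3.05). Col4a1, at 0.571 of its level in R5 cells, was not called. The Col4a4 call was lost with DESeq2 size factors (log2 ratio 1.60) and with the trend of ratio on gene length removed (1.36), and with that trend removed Col4a1 was called lower (-1.10).

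The other genes higher in R6 cells were one multiplexin, several fibril-associated genes and Col27a1. Col18a1, the source of endostatin and a basement membrane component, had 216 scaled CPM in the R6 library, 49.4 in the R5 library, 7.65 in the library labelled R8 and 307 in the presorted library. It was 4.36-fold higher than in R5 cells (4.04 to 4.72), while at 0.702 of the presorted level it was not called there. Hepatocytes are a known source of Col18a1 in liver. The 6 hepatocyte markers summed to 4461 scaled CPM in R6, 3239 in R5, 334 in the library labelled R8 and 15641 in presorted cells. Alb alone made 3241 of the R6 sum and 1265 of the R5 sum. Of the 6 markers, 1 was higher and 3 were lower in R6 than in R5 cells. Over all genes tested, 15.5% and 12.7% were so called. The part of hepatocytes in the Col18a1 levels was not tested. Col16a1, a fibril-associated collagen, had 40.3 scaled CPM in the R6 library, 7.20 in the R5 library, 1.17 in the library labelled R8 and 14.7 in the presorted library. It was 5.59-fold higher than in R5 cells (4.57 to 6.90) and 2.74-fold higher than in presorted cells (2.49 to 3.01).

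Col9a3, a chain of cartilage type IX collagen, was at 9.75 scaled CPM in the R6 library and at most 1.76 in the others. It was 8.12-fold higher than in R5 cells (4.99 to 14.1); 6.07% of its exon bases overlap Tcfl5 on the opposite strand, which had at most 42 counts in a library. Col27a1, a fibrillar collagen best known from cartilage, had 39.4 scaled CPM in the R6 library, 13.4 in the R5 library, 19.8 in the library labelled R8 and 11.5 in the presorted library. It was the only fibrillar gene with 100 or more counts that was highest in R6 cells, 2.93-fold above R5 cells (2.52 to 3.43), a call that was lost with the length trend removed (log2 ratio 1.14). Col22a1, which is found at tissue junctions such as those of muscle and tendon, broke this grouping. It had 8.58 scaled CPM in the R6 library, 1.20 in the R5 library, 11.9 in the library labelled R8 and 0.495 in the presorted library. Col22a1 was above the presorted library by 17.3-fold in R6 cells (11.2 to 28.1) and by 24.0-fold in the library labelled R8 (15.6 to 38.9). Both of these libraries carry Prom1+ in their label, but Prom1 itself was at 11.4 scaled CPM in the library labelled R8, below presorted cells. They also had a count for 69.3% and 69.5% of the chemosensory receptor genes described below as background. The percentile 95 of those genes was 0.817 scaled CPM in R6 and 1.08 in the library labelled R8. The part of such counts in the Col22a1 levels was not tested.

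Most genes of fibrillar and beaded filament collagen were at their lowest in R6 cells. Col3a1, which co-assembles with type I collagen in scar, had 1.55 scaled CPM in the R6 library, 71.2 in the R5 library, 8.10 in the library labelled R8 and 224 in the presorted library. Col1a1, for the major chain of type I collagen, had 0.700 scaled CPM in R6, 8.76 in R5, 1.53 in the library labelled R8 and 51.8 in presorted cells, and Col1a2, for its partner chain, had 1.34 in R6, 38.0 in R5, 2.78 in the library labelled R8 and 53.3 in presorted cells. The ranking of the libraries was the same for these 3 genes. Col6a1 had 0.554 scaled CPM in the R6 library, 24.0 in the R5 library, 1.29 in the library labelled R8 and 38.7 in the presorted library. Col6a2 had 0.263 in R6, 17.2 in R5, 0.927 in the library labelled R8 and 20.5 in presorted cells, and Col6a3 had 0.642 in R6, 17.6 in R5, 1.25 in the library labelled R8 and 12.6 in presorted cells. Of these type VI genes, Col6a3 alone had a larger value in R5 than in presorted cells, by less than the 2-fold threshold. Against R5 cells the ratios in R6 cells were 46.0-fold lower for Col3a1 (34.9 to 61.9), 12.5-fold for Col1a1 (8.03 to 20.3), 28.3-fold for Col1a2 (20.9 to 39.1) and 65.6-fold for Col6a2 (34.0 to 145). Col14a1, a fibril-associated collagen of fibroblasts, was 8.60-fold lower (6.51 to 11.5).

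The low fibrillar levels have to be read beside the background of each library. Chemosensory receptor genes, which are genes of sensory epithelia, had a count for 69.3% of 1506 genes in the R6 library and 69.5% in the library labelled R8, against 27.0% in the R5 library and 12.4% in the presorted library. Their percentile 95 was 0.817 scaled CPM in R6, 0.353 in R5, 1.08 in the library labelled R8 and 0.0450 in presorted cells. Of the 24 collagen genes with 100 or more counts, Col1a1, Col5a3, Col6a1, Col6a2, Col6a3 and Col8a1 lay under that level in R6, and Col4a6, Col5a3, Col6a2 and Col9a3 in the library labelled R8. In R6, 21 of all 44 collagen genes lay above it. Above it were 29 in the R5 library, 25 in the library labelled R8 and 37 in the presorted library. Per kilobase of exon, which lowers long genes such as the collagens, the genes above percentile 95 numbered 12 in R6, 23 in R5, 9 in the library labelled R8 and 35 in presorted cells. On that scale 12 of the 24 were at or under it in R6, among them also Col1a2, Col3a1, Col5a1, Col5a2, Col13a1 and Col14a1. In the library labelled R8, 15 of the 24 were, including Col4a3, Col4a4, Col4a5 and Col4a6. The part of such counts in low collagen levels was not tested.

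Col5a2 and Col13a1 had levels in the library labelled R8 near those in presorted cells, as Col4a1 and Col4a2 did. Col5a2, a type V chain that helps set fibril diameter, had 1.46 scaled CPM in the R6 library, 69.6 in the R5 library, 62.8 in the library labelled R8 and 77.1 in the presorted library. Its usual partner Col5a1 had 0.992 scaled CPM in R6, 2.40 in R5, 1.57 in the library labelled R8 and 16.2 in presorted cells, and Col5a3 had 0.759 in R6, 0.353 in R5, 0.322 in the library labelled R8 and 3.33 in presorted cells. Col5a2 alone of the 3 type V genes was high in all libraries but the first. Col5a1 per kilobase stood at 0.768 of Col5a2 in the R6 library (0.482 to 1.21), 0.0390 in the R5 library (0.0268 to 0.0549), 0.0283 in the library labelled R8 (0.02002 to 0.0388) and 0.237 in the presorted library (0.218 to 0.257). Col13a1, a transmembrane collagen, had 1.78 scaled CPM in the R6 library, 72.8 in the R5 library, 250 in the library labelled R8 and 212 in the presorted library. It was 40.9-fold lower in R6 than in R5 cells (31.6 to 53.9).

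Against the presorted cells, 13 of 40 collagen genes were higher and 16 lower in R6 cells, where 27.6% and 15.6% of all genes tested were called. The median log2 ratio was -0.63 over the collagen genes and 0.17 over all genes, and -2.50 over the 24 collagen genes with 100 or more counts and -0.18 over all genes with as many. Of the 13 higher genes, 8 had 100 or more counts in a library: the 4 type IV genes Col4a3 (5.65-fold), Col4a4 (5.27-fold), Col4a5 (5.04-fold) and Col4a6 (4.18-fold), and Col9a3, Col16a1, Col22a1 and Col27a1. The other 5 were Col11a1, Col19a1, Col24a1, Col26a1 and Col28a1, each with under 100 counts in every library. Among the lower genes, Col3a1 was 145-fold lower (111 to 194), Col13a1 119-fold lower (92.5 to 156), Col1a1 73.9-fold lower (49.6 to 116), Col4a2 10.0-fold lower (9.59 to 10.4) and Col4a1 7.25-fold lower (7.05 to 7.46).

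R5 cells had 3 of 40 collagen genes higher and 9 lower than the presorted cells, against 9.77% and 14.1% of all genes tested. The median log2 ratio was -0.62 over the collagen genes and -0.05 over all genes, and with 100 or more counts it was -0.52 over the collagen genes and -0.24 over all genes. Col8a1, a short-chain network collagen of vessel walls and of Descemet's membrane in the eye, had 0.584 scaled CPM in the R6 library, 14.1 in the R5 library, 1.29 in the library labelled R8 and 2.003 in the presorted library. It was 7.02-fold higher in R5 than in presorted cells (5.44 to 9.12). Col23a1, a transmembrane collagen, had 4.99 scaled CPM in R6, 10.8 in R5, 1.09 in the library labelled R8 and 2.66 in presorted cells and was 4.07-fold higher (3.18 to 5.22). Both were highest in the R5 library. The third higher gene, Col26a1, rested on 18 counts, against 5 in the presorted library. The lower genes were Col1a1 (5.91-fold), Col3a1 (3.15-fold), Col4a1 (4.14-fold), Col4a2 (3.47-fold), Col5a1 (6.73-fold), Col5a3 (9.43-fold), Col13a1 (2.91-fold), Col14a1 (4.91-fold) and Col18a1 (6.22-fold). Col1a2, Col5a2, Col6a1, Col6a2 and Col6a3 were not called.

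**Figure D4:**
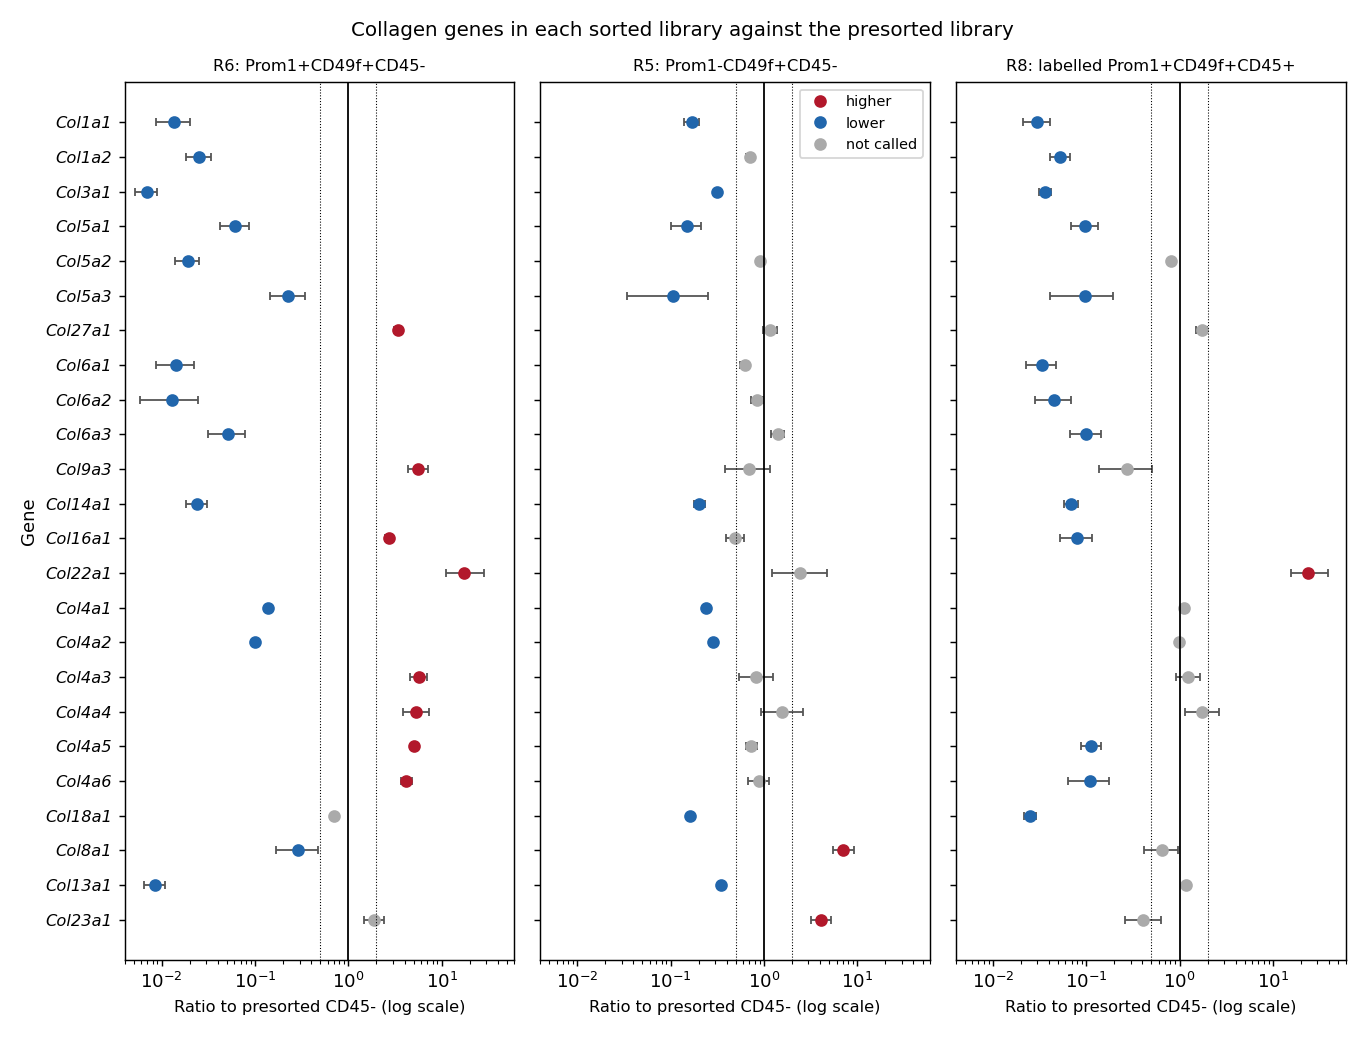
Ratio of each sorted library to the presorted library (log scale) for the 24 collagen genes with 100 or more counts, 1 panel per sorted library, with exact 95% intervals for counting error; dotted lines mark 2-fold and colour gives the call. The 4 genes Col4a3 to Col4a6 lie to the right in the R6 panel, and Col4a1, Col4a2, Col5a2 and Col13a1 lie near the line of equality in the panel labelled R8.

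The library labelled R8 had 8 of 40 collagen genes higher and 13 lower than the presorted cells, against 23.8% and 12.1% of all genes tested. The median log2 ratio was -0.23 over the collagen genes and 0.09 over all genes, but -3.16 over the 24 collagen genes with 100 or more counts and -0.16 over all genes with as many. Only Col22a1 of the 8 higher genes had 100 or more counts in a library. Some abundant genes stayed near the presorted level: the ratio was 1.12 for Col4a1 (1.10 to 1.14), 0.985 for Col4a2 (0.966 to 1.00), 1.18 for Col13a1 (1.14 to 1.22) and 0.815 for Col5a2 (0.767 to 0.865). The lower genes were led by Col18a1 at 40.2-fold (34.8 to 46.6), Col1a1 at 33.8-fold (24.6 to 47.9), Col6a1 at 30.01-fold (21.2 to 44.0) and Col3a1 at 27.7-fold (24.1 to 32.0). Col4a5 and Col4a6 were 8.87-fold and 9.06-fold lower. Its 2 leading genes, Col4a1 and Col4a2, held 82.7% of its collagen counts, while the leading pair held 50.4% in R6 cells (Col18a1 and Col4a1), 49.9% in R5 cells and 60.7% in presorted cells (Col4a1 and Col4a2 in both).

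Set directly against the library labelled R8, R6 cells had 8 of 40 collagen genes higher and 8 lower, with 12.5% and 13.1% of all genes tested called. The median log2 ratio was -0.73 over the collagen genes and -0.17 over all genes, and with 100 or more counts it was -0.81 over the collagen genes and -0.03 over all genes. The higher genes were Col4a5 (44.7-fold, 35.3 to 57.3), Col4a6 (37.9-fold), Col16a1 (34.5-fold), Col18a1 (28.2-fold), Col9a3 (20.2-fold), Col23a1 (4.59-fold), Col4a3 (4.56-fold) and Col4a4 (3.005-fold). Those lower were Col13a1 (140-fold, 109 to 184), Col5a2 (43.1-fold), Col4a2 (9.85-fold), Col4a1 (8.11-fold), Col3a1 (5.24-fold), Col25a1 (3.42-fold), Col14a1 (2.93-fold) and Col17a1. The last had 0 counts in R6 cells and was 9.20-fold lower (interval from 6.82) with a floor of 3 counts. These comparisons share libraries, so they do not repeat one another independently.

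The 16 genes with 10 to 99 counts reached at most 2.78 scaled CPM, and 3 were highest in the R6 library, 2 in the R5 library, 6 in the library labelled R8 and 5 in the presorted library. Col11a1, a minor fibrillar chain, had 34 counts in the R6 library, 2 in the R5 library, 46 in the library labelled R8 and 0 in the presorted library, which was the deepest. Against 3 counts there it was 14.7-fold higher in R6 cells (interval from 11.3). Col28a1 and Col24a1, also without a presorted count, were 7.35-fold (from 5.35) and 3.89-fold (from 2.56) higher on the same floor. The libraries holding these counts are the ones in which most chemosensory receptor genes also had a count. Col15a1, a multiplexin of vascular and muscle basement membranes, had 0 counts in R6, 1 in R5, 4 in the library labelled R8 and 35 in presorted cells, and Col17a1, a hemidesmosome protein, had 0 in R6, 2 in R5, 20 in the library labelled R8 and 37 in presorted cells. With that floor for R6, they were 8.998-fold (from 6.94) and 9.51-fold (from 7.36) lower in R6 than in presorted cells. Col12a1, a fibril-associated collagen, had 76 counts in R6, 6 in R5, 69 in the library labelled R8 and 62 in presorted cells and was 5.23-fold higher in R6 than in R5 cells.

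Summed levels of marker genes of other liver cells also differed among the libraries. The 8 cholangiocyte markers summed to 21921 scaled CPM in the R6 library, 8975 in the R5 library, 348 in the library labelled R8 and 3466 in the presorted library, and for Col4a5, Col4a6, Col9a3 and Col16a1 R6 was likewise the highest and the library labelled R8 the lowest, although for these collagen genes R5 stood below presorted cells. All 8 markers were higher in R6 than in presorted cells, as were 27.6% of all genes tested. The 6 sinusoidal endothelial markers summed to 77.4 in R6, 3748 in R5, 13957 in the library labelled R8 and 10239 in presorted cells, as Col4a1 and Col13a1 were ordered, and all 6 were lower in R6 cells than in any other library. Of all genes tested, 12.7% were lower in R6 than in R5 cells. The shares were 13.1% against the library labelled R8 and 15.6% against presorted cells. Neither list had a marker at 0 in a library. The 10 portal fibroblast and fibroblast markers summed to 42.3 in R6, 874 in R5, 398 in the library labelled R8 and 453 in presorted cells, with Thy1 and Gli1 at 0 in the R6 library, Mfap4 at 0 in the R5 library, and Mfap4 and Gli1 at 0 in the library labelled R8. Cd34 alone made 3.62 of the R6 sum, 318 in R5, 362 in the library labelled R8 and 312 in presorted cells. Of the 9 markers tested, 0 were higher and 6 lower in the library labelled R8 than in presorted cells. Over all genes tested, 23.8% and 12.1% were so called. The 10 stellate markers summed to 283 in R6, 197 in R5, 304 in the library labelled R8 and 447 in presorted cells, of which Rgs5, a mural cell gene, made 251 in the R6 library. Hgf made 228 of the sum in the library labelled R8 and 185 in presorted cells. Against presorted cells, 1 marker was higher and 7 lower in R6, where 27.6% and 15.6% of all genes were called. In R5, 0 were higher and 5 lower (all genes 9.77% and 14.1%). In the library labelled R8, 0 were higher and 9 lower (all genes 23.8% and 12.1%). Hand2 was at 0 in the R6 library, and Ngfr at 0 in the R5 library and the library labelled R8. Lrat, the retinol-esterifying enzyme of stellate cells, had 1.66 scaled CPM in R6, 4.17 in R5, 14.4 in the library labelled R8 and 37.4 in presorted cells. The other endothelial lists and the mesothelial list, like the portal fibroblast and fibroblast list, had their largest sums in the R5 library. Col6a3, Col8a1 and Col23a1 were likewise highest there. The 6 large vessel endothelial markers summed to 51.3 scaled CPM in R6, 3336 in R5, 1756 in the library labelled R8 and 1562 in presorted cells. The 5 lymphatic endothelial markers summed to 385 in R6, 2677 in R5, 25.5 in the library labelled R8 and 121 in presorted cells. Ccl21a alone made 2473 of the R5 sum, and Prox1 alone made 345 of the R6 sum. The 6 mesothelial markers summed to 305 in R6, 540 in R5, 8.70 in the library labelled R8 and 158 in presorted cells, with Wt1 at 0 in the library labelled R8. Krt19, also a cholangiocyte marker, made 301 of the R6 sum. The part of these cell types in the collagen levels was not tested.

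Genes that modify, assemble, cross-link, cleave and bind collagen were examined as a list of 56, of which 52 were tested. In R6 cells 6 were higher and 19 lower than in R5 cells, where 15.5% and 12.7% of all genes were called, with a median log2 ratio of -0.76 (all genes 0.38). Against presorted cells 6 were higher and 28 lower in R6 cells, where 27.6% and 15.6% of all genes were called, with a median of -1.31 (all genes 0.17). In R5 cells 5 were higher and 14 lower than in presorted cells, where 9.77% and 14.1% of all genes were called. In the library labelled R8, 3 were higher and 14 lower than in presorted cells, where 23.8% and 12.1% of all genes were called. R6 cells had 8 higher and 17 lower than the library labelled R8, where 12.5% and 13.1% of all genes were called. All 6 fibril assembly genes were lower in R6 cells than in R5 and presorted cells. Decorin (Dcn), a proteoglycan that coats fibrils, had 6.33 scaled CPM in the R6 library, 530 in the R5 library, 23.3 in the library labelled R8 and 294 in the presorted library. Sparc, a collagen-binding matrix protein, had 487 scaled CPM in R6, 2113 in R5, 1851 in the library labelled R8 and 1733 in presorted cells, and was 4.34-fold lower in R6 than in R5 cells (4.26 to 4.42).

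In the crosslinking, prolyl hydroxylation, lysyl hydroxylation, propeptide cleavage and receptor roles, genes were called in both directions between R6 and R5 cells. Of the 10 prolyl hydroxylation genes, P3h2 was 2.40-fold higher in R6 cells (2.07 to 2.80) and 4 were lower. Of the lysyl oxidases, which cross-link collagen and elastin, Lox had 0.554 scaled CPM in the R6 library, 13.6 in the R5 library, 0.322 in the library labelled R8 and 5.38 in the presorted library. Loxl2 had 3.44 in R6, 19.4 in R5, 64.3 in the library labelled R8 and 36.5 in presorted cells, whereas Loxl4 had 16.7 scaled CPM in R6, 3.25 in R5, 9.10 in the library labelled R8 and 14.7 in presorted cells. Against R5 cells Loxl4 was 5.14-fold higher (3.80 to 7.10) and the other 4 lysyl oxidase genes were lower. Of the lysyl hydroxylases, Plod1 had 32.3 scaled CPM in the R6 library, 148 in the R5 library, 434 in the library labelled R8 and 396 in the presorted library, while Plod2, which modifies telopeptide lysines, had 31.2 in R6, 12.3 in R5, 2.74 in the library labelled R8 and 10.1 in presorted cells. Plod2 was higher and Plod1 lower in R6 than in R5 cells, and Plod3 was not called. Of the receptors, Ddr1, the discoidin domain receptor of epithelia, had 212 scaled CPM in R6, 40.8 in R5, 10.3 in the library labelled R8 and 58.4 in presorted cells, and Itga1, the alpha chain of a collagen-binding integrin, had 22.8 in R6, 82.1 in R5, 282 in the library labelled R8 and 230 in presorted cells. Ddr1 was 5.20-fold higher (4.78 to 5.67) and Itga1 3.60-fold lower (3.29 to 3.95) in R6 than in R5 cells. Bmp1, the protease that removes the C-terminal propeptide of fibrillar procollagens, had 90.4 scaled CPM in R6, 22.1 in R5, 3.18 in the library labelled R8 and 41.9 in presorted cells and was 4.09-fold higher (3.64 to 4.61), whereas Col1a1, Col1a2 and Col3a1 were lower in R6. Its enhancer Pcolce had 19.7 scaled CPM in R6, 89.7 in R5, 50.9 in the library labelled R8 and 65.8 in presorted cells and was 4.55-fold lower (4.15 to 5.01).

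**Figure D5:**
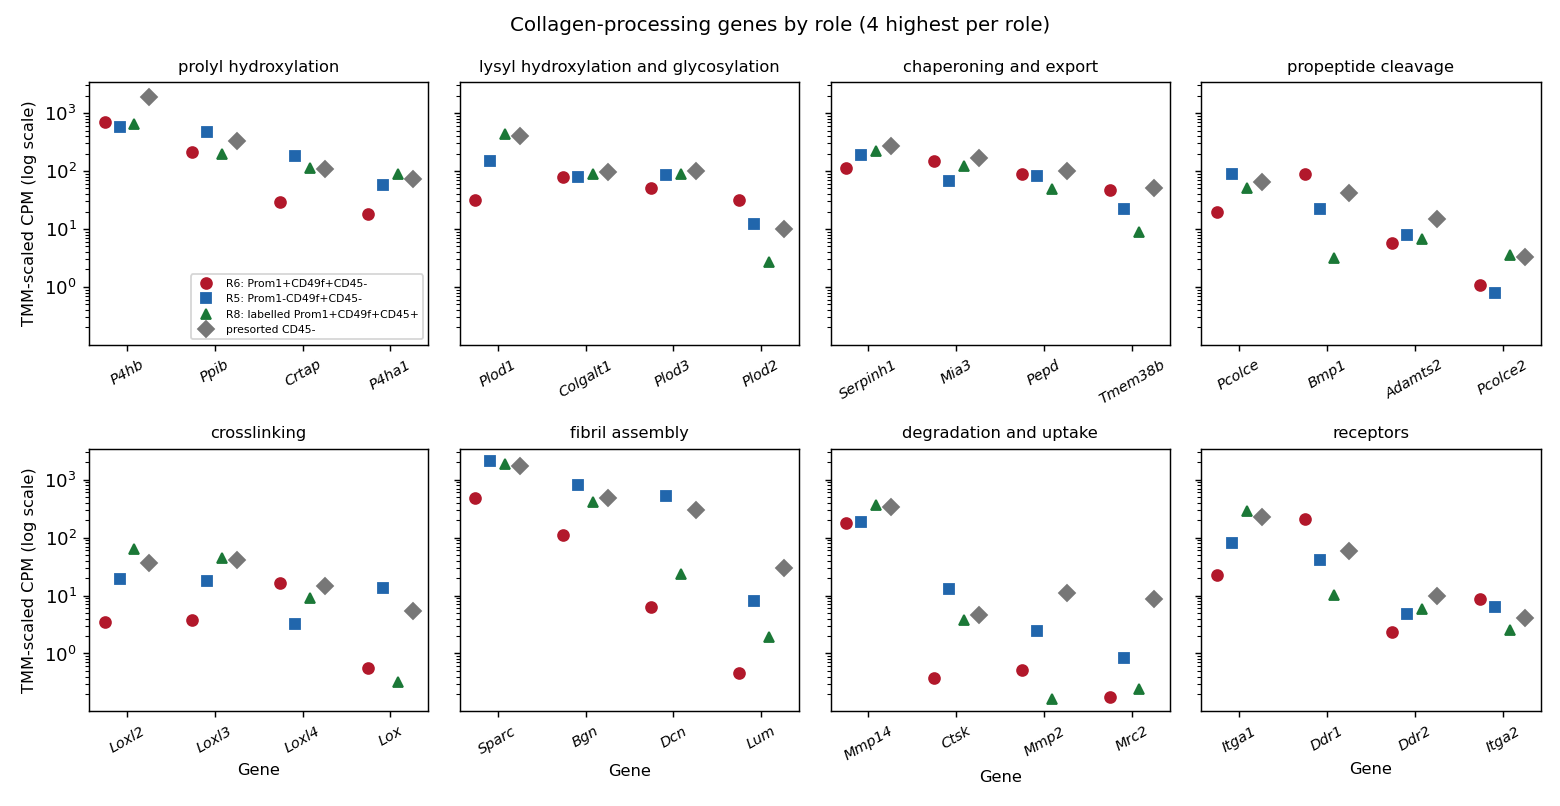
Scaled CPM (log scale) of the 4 collagen-processing genes with the highest mean level in each of 8 roles, with 1 point per library. Fibril assembly genes lie lowest in the R6 library, whereas Ddr1, Bmp1, Plod2 and Loxl4 lie highest there.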

How the data were processed

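RNA was sequenced from 4 cell populations of mouse liver, 1 library each. Per the deposited tables, the authors gave estimated counts per gene and a normalized table, whose values are CPM plus 1, as read from the deposited values. The submitters' processing notes name TopHat2, Partek 3 and mm10. Settings, annotation release and use of strand: not given in the sources used here. One column, named only CD45, was taken as the presorted CD45- cells. Estimated counts were rounded, and factors came from the trimmed mean of M values in edgeR 4.0.16 (R 4.3.3) over genes with 10 or more counts in 1 or more libraries. Ratios carry exact conditional binomial 95% intervals and levels exact Poisson intervals (scipy 1.17.1), with a 2-fold threshold and a floor of 3 counts for a library at 0. The code was tested on simulated data. Of 41128 gene rows, 40254 matched a GENCODE vM21 symbol; lengths per kilobase are its merged exons. Genes with 100 or more counts are named in full, as are up to 4 of the highest genes of a list and members showing a split. The collagen genes, their classes and all other lists were chosen with earlier results of these data known. Alternatives were library totals, DESeq2 1.42.0 size factors, the authors' CPM table, no filter, a filter of 50 counts, removal of the length trend, and a chemosensory background filter.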

Additional observations from a re-analysis of the deposited data

How the results depend on the processing

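Of 837 values of named genes under 7 alternatives, 802 kept their direction and call, 17 gained a call, 4 lost one, 14 uncalled values moved across equality, and 0 called values reversed. The alternatives that only filter genes (no filter, 50 counts, chemosensory background) leave each ratio and interval unchanged. Values under them were thus the same in advance, and the 802 includes them. Counts of collagen genes called moved by over 1.5 times under 3 alternatives. On the authors' CPM table, called on the ratio alone, 16 were higher in R6 than in R5 cells (10 as reported), 6 were higher in R5 than in presorted cells (3 as reported), and 19 were lower in R6 cells than in the library labelled R8 (8 as reported); 34.5% of calls in that last comparison were then higher, where they were equal in both directions as reported. With 50 or more counts required, fewer genes are tested, and against presorted cells 8 were higher in R6 cells (13 as reported) and 2 in the library labelled R8 (8 as reported). With only genes above percentile 95 of the chemosensory genes, 5 were higher in the library labelled R8 (8 as reported). Col8a1 was no longer called lower in R6 than in presorted cells when scaled by library totals (log2 ratio -1.36). Library totals moved the median log2 ratio of all genes by 0.42 for R6 and 0.34 for the library labelled R8 over presorted cells, and by 0.23 for R6 over R5 cells, where DESeq2 size factors moved it by -0.15. No paired analysis was possible because each population had 1 library. Depth limits the genes under 100 counts, above all in the R5 library, where 3 counts equal 0.212 scaled CPM.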

Other observations

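The following chains were not in a constant ratio among the libraries. They belong to the same collagen type, apart from Col3a1 and Col1a1, which are chains of 2 types that co-assemble. Per kilobase of exon, Col1a1 stood at 0.988 of Col1a2 in the R6 library (0.577 to 1.65), 0.436 in the R5 library (0.356 to 0.531), 1.04 in the library labelled R8 (0.683 to 1.57) and 1.84 in the presorted library (1.74 to 1.95). Only the R5 and presorted libraries had over 100 counts of both genes, and their intervals did not overlap. Col6a3 stood at 0.268 of Col6a1 in the R5 library (0.227 to 0.317) and at 0.119 in the presorted library (0.108 to 0.131). Col3a1 stood at 5.44 of Col1a1 in the R5 library (4.51 to 6.60) and at 2.90 in the presorted library (2.77 to 3.03). Col8a1 had 20 counts in R6, 199 in R5, 32 in the library labelled R8 and 89 in presorted cells, while Col8a2, the other type VIII chain, had 10 counts in R6, 4 in R5, 6 in the library labelled R8 and 26 in presorted cells. The intervals cover counting error only, and between-gene ratios carry the open question of transcript coverage.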
